A study of Mus musculus with 6 samples.

Results

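The autophagy core and receptor genes are the genes that build the autophagosome, load it with cargo and prepare it for fusion with the lysosome. They were taken as the protein-coding rows of the deposited count table whose symbols name an Atg gene, an ATG8 family gene, a subunit of the ULK or PI 3-kinase complexes, a PI3P reader, a cargo receptor or a tethering or fusion factor. This gave 45 of 24794 genes, and all 45 were among the 13779 genes tested. RNA had been sequenced from 6 libraries of LLC cells, the mouse Lewis lung carcinoma line. The 3 mimic libraries came from cells given miR-291-3 mimics, synthetic RNAs that stand in for a microRNA, and the 3 control libraries from cells given a mimics control, so that both groups had been transfected. The series' design text names the microRNA as miR-291a-3p and asks what its overexpression does to these cells. Neither the dose nor the time from transfection to harvest is given in the sources used here, and no genetic change is labelled in either group.

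Autophagy encloses cytoplasm, damaged organelles or protein aggregates in a double membrane and delivers them to the lysosome. The ULK kinase complex starts the process, a PI 3-kinase complex around Beclin 1 marks the growing membrane with PI3P, and ATG9 vesicles and ATG2 supply lipid. A ubiquitin-like reaction driven by ATG7, ATG3, ATG10 and the ATG12-ATG5-ATG16L1 complex then attaches ATG8 proteins (LC3 and GABARAP) to the membrane, where receptors such as p62 dock with their cargo. In tumour cells the pathway is known to recycle nutrients under stress. Most of its control is exerted on proteins, so transcript levels do not measure its activity.

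Total counts ranged from 25376993 to 32963986 per library, and the autophagy genes took between 0.244% and 0.253% of them. Levels are given as CPM, counts scaled to library size with edgeR's TMM factors. The 6 mesenchymal markers summed to 2549 to 2608 CPM, most of it Vim, while Sparc was at 391 to 399.6 CPM in control and 583 to 595.5 CPM in mimic libraries and Fn1 at 109.9 to 119 and 62.5 to 66.4 CPM. Over the 6 libraries Pdgfrb was at 24.4 to 32.8 CPM and Col1a2 at 1.03 to 1.77 CPM. Col1a1 was at 0.035 to 0.149 CPM in control and at 0.88, 3.755 and 0.105 CPM in mimic libraries. Of 4 epithelial markers Krt8 stood at 486 to 500.5 CPM in control and 545 to 562 CPM in mimic libraries and Krt18 at 1.63 to 2.36 and 3.12 to 4.39 CPM, and Epcam and Cdh1 at no more than 0.149 CPM. Of 4 alveolar markers only Sftpb was listed, with a single count in 1 library. The summed level of the leukocyte markers, 6 of 7 of which were listed, was 14.5 to 16.5 CPM in control and 8.38 to 9.76 CPM in mimic libraries. Nearly all of this came from Cd14 and Lyz2, while Ptprc, which marks leukocytes, was at 0 in 5 libraries and at 0.139 CPM in the other. Of 3 endothelial markers Pecam1 was at 0.312 to 0.807 CPM, Cdh5 had a single count in 1 library and Kdr was not listed. Mitochondrial mRNAs took 3.62% to 3.75% of control and 3.11% to 3.17% of mimic counts, and ribosomal RNA 0.137% to 0.175% and 0.109% to 0.124%. The part of these differences in the results was not tested, and in bulk RNA fewer cells of a type and less RNA per cell cannot be told apart. No label states that libraries of the same group were separate cultures, so each p-value reflects only how far these libraries vary, and that variation may be technical.

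The autophagy genes changed in both directions and by small amounts. In the edgeR quasi-likelihood test with Benjamini-Hochberg adjustment over all genes tested (adjusted p under 0.05), 10 of the 45 rose in the mimic libraries, 9 fell and 26 did not pass. That is 42.2% called, against 49.1% of all genes tested, of which 24.3% rose and 24.8% fell, so the share called was near or below the background. Their median log2 change was 0.02, against -0.01 over all genes tested. Of the 19 that passed, 5 changed by at least 1.2-fold: Atg10, Ulk2, Gabarap and Atg9b fell and Calcoco1 rose. For comparison, 13.6% of all genes tested fell and 7.61% rose by at least 1.2-fold. The CPM values of the groups did not overlap for 11 genes that were lower and 11 that were higher in the mimic libraries, where the background is 27.9% and 27%.

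**Figure D1:**
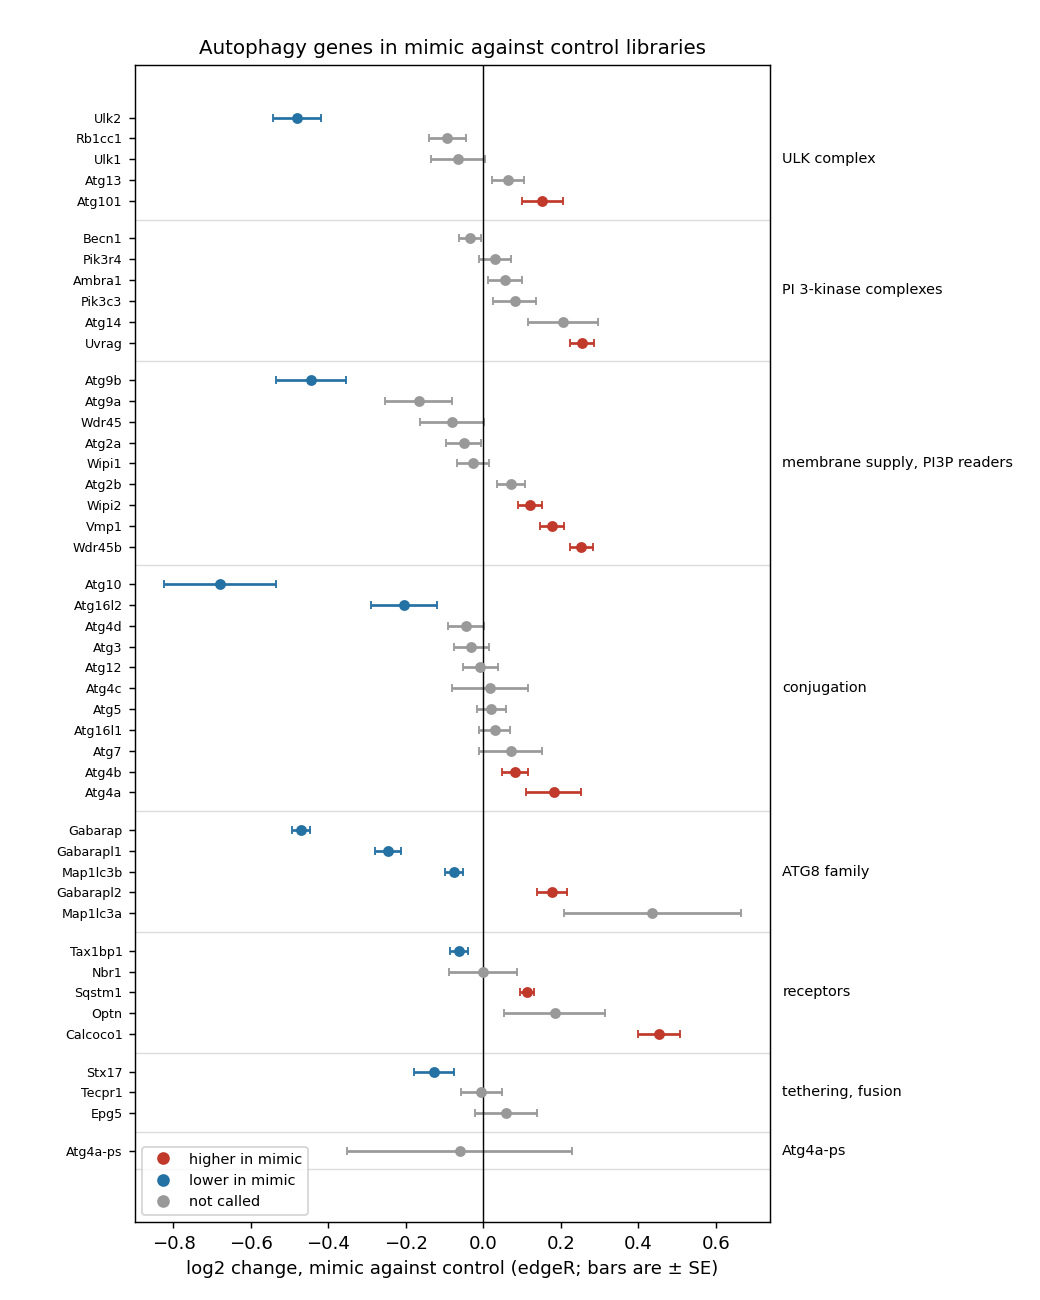
Log2 change of each of the 45 autophagy genes in mimic against control libraries (horizontal axis), with bars of 1 SE, grouped by role and coloured by the call of the edgeR test. The 9 genes that fell lie between -0.68 (Atg10) and -0.06 (Tax1bp1) and the 10 that rose between 0.08 (Atg4b) and 0.45 (Calcoco1).

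The balance of directions depended on the scaling. With total counts only, which moved the median of all genes tested to -0.06, 6 autophagy genes rose and 13 fell, against a background of 17% and 32.3%. No called gene changed direction under any alternative. Atg10, Ulk2, Gabarap, Atg9b and Gabarapl1 were lower and Calcoco1, Uvrag, Wdr45b and Sqstm1 higher in every one of the 15 alternatives. Of the 26 genes that did not pass, 19 passed in no alternative. Without mimic replicate 3, 5 autophagy genes fell and 9 rose, against 3026 and 3173 of the 14032 genes tested there.

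**Figure D2:**
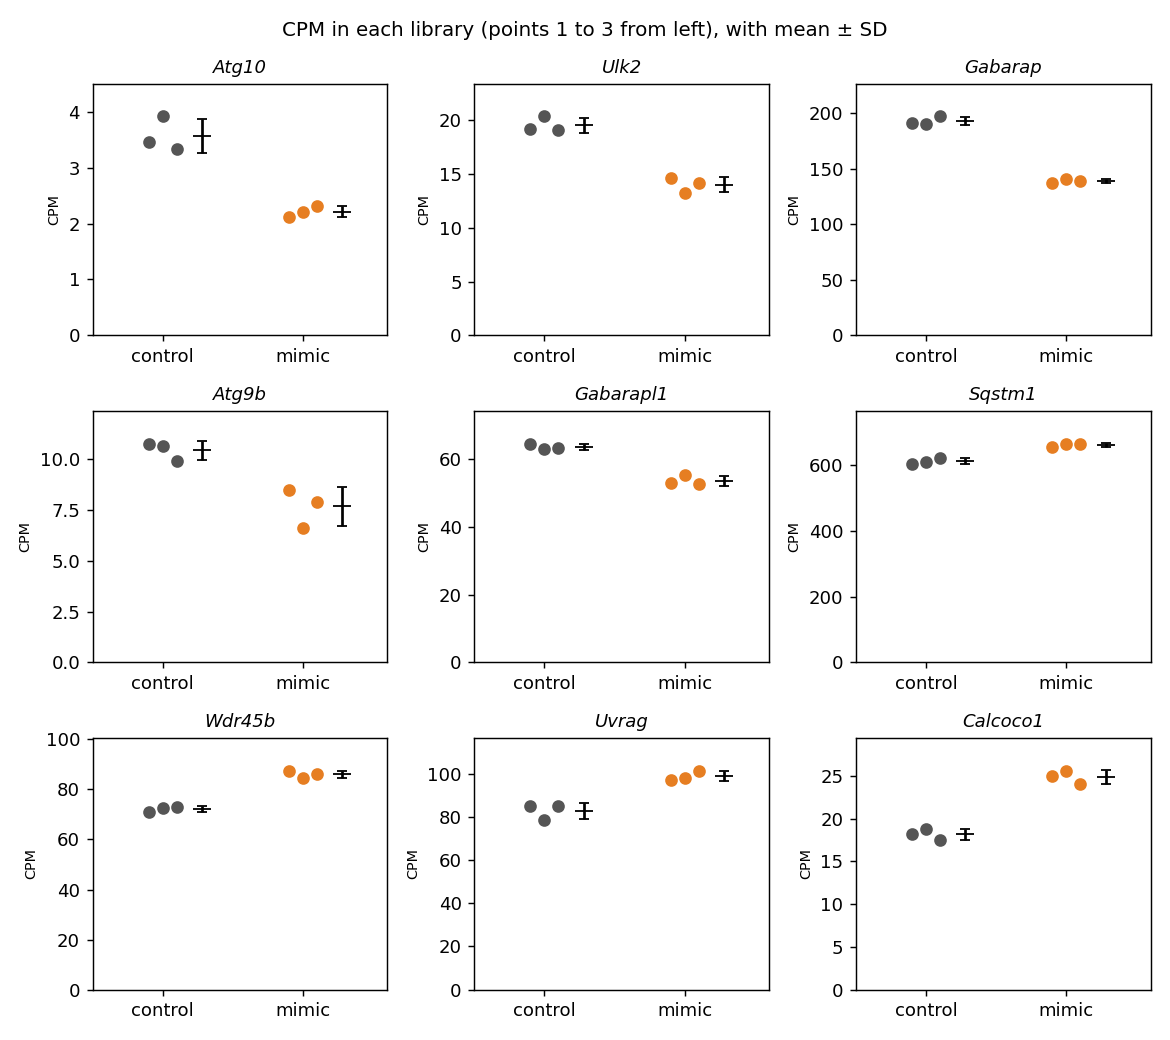
TMM-scaled CPM (vertical axes, starting at 0) of the 9 autophagy genes called in every alternative, in each control and mimic library, with the group mean ± SD beside the points. The control and mimic points do not overlap in any of the 9 panels: the first 5 genes are lower and the last 4 higher in the mimic libraries.

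Of the 5 genes of the ULK complex 1 rose and 1 fell: Ulk2 fell and Ulk1 did not pass. Ulk2 (ENSMUSG00000004798.15, chromosome 11), the paralog of the initiating kinase gene Ulk1, stood at 19.2, 20.35 and 19.1 CPM in control and at 14.6, 13.2 and 14.2 CPM in mimic libraries. All 3 mimic values lay below all 3 control values, and the log2 change was -0.48 ± 0.06 (SE, n = 3 each, adjusted p = 1.22e-07, edgeR). Ulk1 stood at 16.3, 13.8 and 14.7 CPM in control and 15, 13.5 and 14.4 CPM in mimic libraries. These groups overlapped, and the log2 change of Ulk1, -0.07 ± 0.07, did not pass (adjusted p = 0.473). In the authors' FPKM, which are scaled for gene length, Ulk2 made up 58.7% ± 2.72 of the sum of both kinases in control and 51.6% ± 0.0976 in mimic libraries (SD, n = 3). The groups did not overlap, and the exact permutation test (two-sided) gave p = 0.1, the smallest that 3 against 3 can give.

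The remaining subunits of the complex changed little. Atg101, a scaffold that binds ATG13, went from 24.2, 21.95 and 24.65 to 26.5, 25.2 and 27.1 CPM and rose 1.11-fold (adjusted p = 0.0186, edgeR). Scaling by total counts only ended that call (adjusted p = 0.145), as did leaving out control replicate 2 (0.139) or mimic replicate 3 (0.0713). The DESeq2 Wald test and limma on FPKM ended it as well. Atg13 had a log2 change of 0.06 and Rb1cc1, which encodes the large scaffold FIP200, one of -0.09; neither passed, although neither pair of groups overlapped. With total counts only Rb1cc1 was lower (log2 change -0.15, adjusted p = 0.0102).

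Of the 6 PI 3-kinase genes 1 rose, Uvrag, and the shared core did not pass. Becn1, which encodes Beclin 1, stood at 107, 103 and 106 CPM in control and 101, 105 and 103.5 CPM in mimic libraries, a log2 change of -0.03 ± 0.03 (adjusted p = 0.328, edgeR). The catalytic subunit gene Pik3c3 and the regulatory subunit gene Pik3r4 had log2 changes of 0.08 and 0.03, and Ambra1, a Beclin 1 partner, one of 0.06. None of these 4 passed, though Pik3c3 passed without control replicate 1 (log2 change 0.15, adjusted p = 0.027) and Becn1 was lower with total counts only (-0.09, adjusted p = 0.00699).

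The genes for the alternative Beclin 1 partners, ATG14 for the autophagosome and UVRAG for endosomes and later steps, had positive log2 changes. Uvrag (ENSMUSG00000035354.10, chromosome 7) stood at 85, 78.6 and 85.1 CPM in control and 97.2, 98.1 and 101 CPM in mimic libraries. Every mimic value was above every control value, and Uvrag rose 1.19-fold (log2 change 0.25 ± 0.03, adjusted p = 6.18e-08, edgeR). Atg14 stood at 8.37, 8.15 and 9.19 CPM in control and 8.98, 9.47 and 11.2 CPM in mimic libraries. Its groups overlapped and its log2 change of 0.21 ± 0.09 just missed the threshold (adjusted p = 0.058), passing without control replicate 3 (adjusted p = 0.0358), without mimic replicate 1 (0.0198) and with the replicate number as a block (0.0397).

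Of the 9 genes for membrane supply and PI3P reading 3 rose and 1 fell. The ATG9 proteins are scramblases carried on the vesicles that seed the membrane. Atg9b (ENSMUSG00000038295.15, chromosome 5) fell from 10.8, 10.65 and 9.9 CPM to 8.5, 6.61 and 7.9 CPM, a log2 change of -0.45 ± 0.09 (adjusted p = 0.00012, edgeR). Atg9a went from 9.3, 9.29 and 10.8 CPM to 8.1, 8.85 and 9.2 CPM; its values did not overlap, but the log2 change of -0.17 ± 0.09 did not pass (adjusted p = 0.112) except with total counts only (adjusted p = 0.0319). The summed FPKM of both genes was 3.86 ± 0.0115 in control and 3.00 ± 0.153 in mimic libraries (SD, n = 3), without overlap (exact permutation test, p = 0.1, the smallest possible). Atg9b supplied 60.9% ± 3.1 of this sum in control and 56.1% ± 4.15 in mimic libraries, values that overlapped.

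The lipid transfer genes Atg2a and Atg2b had log2 changes of -0.05 and 0.07, and neither passed. Atg2a was lower with total counts only (log2 change -0.11, adjusted p = 0.0442), and Atg2b passed without mimic replicate 1 (0.10, adjusted p = 0.035). Vmp1, whose product is a scramblase of the endoplasmic reticulum, rose from 80.9, 84.5 and 85.9 CPM to 92.9, 98.7 and 92.5 CPM. That is 1.13-fold (adjusted p = 2.33e-05, edgeR), and the groups did not overlap, but limma on log2(FPKM + 1) gave an adjusted p of 0.0613.

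The 4 WIPI family genes encode propeller proteins that bind PI3P. Wdr45b (ENSMUSG00000025173.14, chromosome 11), which encodes WIPI3, rose from 71, 72.5 and 73.1 CPM to 87.4, 84.7 and 86.2 CPM (log2 change 0.25 ± 0.03, adjusted p = 2.46e-08, edgeR). Wipi2, which recruits ATG16L1, rose from 87.35, 86.2 and 82.7 CPM to 92.4, 94.5 and 91.4 CPM (1.09-fold, adjusted p = 0.00121), a call lost with total counts only (adjusted p = 0.0775) and with limma on log2(FPKM + 1) (0.171). Both had mimic values wholly above the control values. Wipi1 and Wdr45 had log2 changes of -0.03 and -0.08 and did not pass. In summed FPKM the family stood at 32.6 ± 0.0361 in control and 34.8 ± 0.295 in mimic libraries, of which Wdr45b supplied 43% ± 0.639 and 47% ± 0.245 (SD, n = 3). Neither the sums nor the Wdr45b shares overlapped between the groups, while the Wipi2 shares, 22% ± 0.665 and 21.9% ± 0.583, did.

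Of the 11 genes of the conjugation system 2 rose and 2 fell. Atg3, Atg5, Atg7, Atg12 and Atg16l1 did not pass, and Atg10 fell. Atg10 (ENSMUSG00000021619.7, chromosome 13) encodes the E2-like enzyme that joins ATG12 to ATG5. It was weakly expressed, at 3.45, 3.92 and 3.33 CPM in control and 2.12, 2.2 and 2.32 CPM in mimic libraries. No values overlapped, and the log2 change, -0.68 ± 0.14, was the most negative among the 45 genes (adjusted p = 0.00021, edgeR). Over the alternatives the change of Atg10 lay between -0.74 and -0.42, with adjusted p between 3.33e-05 and 0.00429.

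Atg5 stood at 44.3, 43.8 and 43.1 CPM in control and 44.1, 43.7 and 45.2 CPM in mimic libraries, a log2 change of 0.02 ± 0.04 (adjusted p = 0.686, edgeR). Atg7, the E1-like activating enzyme gene, stood at 11.7, 11.4 and 11.6 CPM in control and varied more in mimic libraries, at 12.3, 10.5 and 13.6 CPM (log2 change 0.07 ± 0.08, adjusted p = 0.505). The groups overlapped for both. The E2-like Atg3, the ubiquitin-like Atg12 and the scaffold gene Atg16l1 had log2 changes of -0.03, -0.01 and 0.03, none of which passed.

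Atg16l2, a paralog of Atg16l1, went from 8.8, 8.88 and 8.71 CPM to 7.3, 7.59 and 7.97 CPM without overlap. It fell by 0.20 on the log2 scale with an adjusted p just under the threshold (0.0479, edgeR). That call was lost when any 1 of the 6 libraries was left out (adjusted p between 0.0511 and 0.147) and with DESeq2 size factors (0.0534), the DESeq2 Wald test (0.203) and the replicate number as a block (0.0513). The fit with no filter and limma on FPKM ended it as well.

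The ATG4 proteases cut ATG8 proteins before attachment and release them afterwards. Atg4a rose from 12.5, 14.25 and 13.5 CPM to 16.6, 14.6 and 14.6 CPM (1.13-fold, adjusted p = 0.0344, edgeR). Atg4b, the most highly expressed of the 4 proteases per length, went from 64.5, 63.35 and 65.8 CPM to 70.1, 69.8 and 65.3 CPM (1.06-fold, adjusted p = 0.0491), with overlapping groups. Neither call held with total counts only (adjusted p = 0.152 for Atg4a and 0.583 for Atg4b). The call of Atg4a was also lost without control replicate 1 (0.171), control replicate 3 (0.0627) or mimic replicate 1 (0.188), and that of Atg4b without control replicate 1 (0.0891), control replicate 2 (0.154), mimic replicate 1 (0.141) or mimic replicate 2 (0.174). Both were lost with the DESeq2 Wald test (0.114 for Atg4a and 0.115 for Atg4b) and with limma on log2(FPKM + 1) (0.258 and 0.527). That of Atg4b was lost with either other filter too. Atg4c and Atg4d had log2 changes of 0.02 and -0.04 and did not pass. Atg4a-ps, a gene with a pseudogene symbol that the table types as protein-coding, stood at 0.683 ± 0.128 CPM in control and 0.646 ± 0.163 CPM in mimic libraries (SD, n = 3), and reads may be split between it and Atg4a.

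Of the 5 genes of the ATG8 family, the proteins that coat the membrane and bind receptors, 3 fell and 1 rose. Gabarap (ENSMUSG00000018567.15, chromosome 11) stood at 192, 190.5 and 197 CPM in control and 137.5, 141 and 139 CPM in mimic libraries. It fell by 27.9% (log2 change -0.47 ± 0.02), with the smallest adjusted p of the 45 genes (2.11e-16, edgeR). Gabarapl1 (ENSMUSG00000030161.9, chromosome 6) fell from 64.6, 62.9 and 63.2 CPM to 53, 55.3 and 52.6 CPM (log2 change -0.25 ± 0.03, adjusted p = 4.22e-07). The mimic values of both lay below every control value.

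The third GABARAP gene moved the other way. Gabarapl2, which encodes GATE-16, rose from 51.1, 47.3 and 52.9 CPM to 56, 58.8 and 56.4 CPM (1.13-fold, adjusted p = 0.000341, edgeR), without overlap; limma on log2(FPKM + 1) gave an adjusted p of 0.0819. Map1lc3b, which encodes LC3B, the usual marker of autophagosomes, stood at 172.5, 174 and 172 CPM in control and 167, 164 and 161 CPM in mimic libraries. It fell by 5.15% (adjusted p = 0.00722), a call lost without mimic replicate 3 (adjusted p = 0.0788). Map1lc3a was weakly expressed, at 1.36, 1.14 and 0.922 CPM in control and 1.28, 1.26 and 2.04 CPM in mimic libraries, and its log2 change of 0.44 ± 0.23 did not pass (adjusted p = 0.118).

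Per gene length, Gabarap was the leading ATG8 transcript in all 6 libraries. Its FPKM was 92.95 ± 1.45 in control and 65.4 ± 1.38 in mimic libraries, and it made up 57.1%, 57.7% and 57.9% of the summed ATG8 FPKM in control and 50.3%, 50.3% and 50.7% in mimic libraries. The share of Gabarapl2 went from 11.9% ± 0.499 to 16.4% ± 0.208 and that of Map1lc3b from 12.6% ± 0.29 to 14.6% ± 0.363, while Gabarapl1 held 17.4% ± 0.33 and 17.8% ± 0.268 (SD, n = 3), values that overlapped. The ATG8 sum itself was 161, 160 and 163.5 FPKM in control and 128, 133 and 128 FPKM in mimic libraries. Apart from Gabarapl1, the control and mimic values of the sum and of these shares did not overlap (exact permutation test, two-sided, p = 0.1 each, the smallest possible with 3 against 3; 34 sums and shares of 8 gene families were computed). Adjustment over them could not bring such a p under 0.05. The shares are parts of 1 sum, so a smaller Gabarap part raises the other shares, and their tests are not independent. The FPKM of Map1lc3b itself was 20.4 ± 0.238 in control and 18.9 ± 0.441 in mimic libraries (SD, n = 3).

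**Figure D3:**
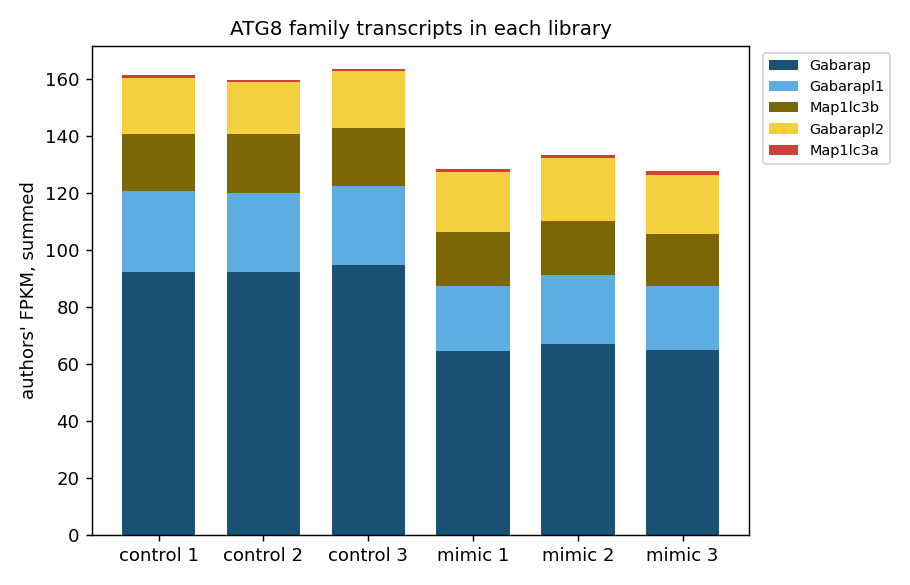
The authors' FPKM of the 5 ATG8 family genes, stacked in each of the 3 control and 3 mimic libraries (vertical axis from 0). The Gabarap segment is shorter in the mimic libraries, 65.4 against 92.95 FPKM on average, and the whole stack is 128 to 133 FPKM high against 160 to 163.5 FPKM.

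Of the 5 cargo receptors Calcoco1 and Sqstm1 rose and Tax1bp1 fell. Calcoco1 (ENSMUSG00000023055.11, chromosome 15), which encodes a receptor for the endoplasmic reticulum and the Golgi, stood at 18.2, 18.8 and 17.55 CPM in control and 24.9, 25.6 and 24 CPM in mimic libraries. All mimic values were above the control values, and Calcoco1 rose 1.37-fold, the largest increase called among the 45 genes (log2 change 0.45 ± 0.05, adjusted p = 3.04e-08, edgeR). Sqstm1 (ENSMUSG00000015837.16, chromosome 11), which encodes p62, the receptor for ubiquitinated cargo, stood at 604, 609 and 623 CPM in control and 656, 665.5 and 664 CPM in mimic libraries. Its groups did not overlap either, and it rose 1.08-fold (log2 change 0.11 ± 0.02, adjusted p = 7.89e-06).

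Tax1bp1, a receptor for aggregates and ubiquitinated cargo, went from 171, 165 and 168 CPM to 163, 161 and 158 CPM and fell by 4.28% (adjusted p = 0.0283, edgeR). Leaving out any of 4 libraries ended the Tax1bp1 call: control replicate 1 (0.127), control replicate 3 (0.0647), mimic replicate 2 (0.0624) and mimic replicate 3 (0.176). The DESeq2 Wald test (0.138) and the fit with no filter (0.135) ended it as well. Nbr1, which works with p62, had a log2 change of 0.00 and the mitophagy receptor gene Optn one of 0.18 at 3.4 ± 0.351 CPM in control; neither passed. In FPKM, Sqstm1 was the highest of all 45 genes in control libraries, at 162 ± 2.33 (SD, n = 3). It supplied 89.1% ± 0.231 of the summed receptor FPKM in control and 89.6% ± 0.191 in mimic libraries, shares that also depend on the gene lengths used. Gabarap followed, and the median of the 45 genes was 3.88 FPKM, against 4.11 over all genes tested.

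Of the 3 genes for tethering and fusion 1 fell. Stx17, the SNARE gene of the completed autophagosome, went from 28.9, 27.8 and 28.8 CPM to 25.7, 28.2 and 24.4 CPM with overlapping groups, and fell by 0.13 on the log2 scale (adjusted p = 0.0412, edgeR). The Stx17 call was lost without control replicate 1 (adjusted p = 0.107), control replicate 3 (0.0989), mimic replicate 1 (0.134) or mimic replicate 3 (0.306), and with the DESeq2 Wald test (0.19). DESeq2 size factors, the fit with no filter and limma on FPKM ended it as well. The tethering genes Epg5 and Tecpr1 had log2 changes of 0.06 and -0.01 and did not pass.

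The 45 genes were then searched for matches to the seed of the microRNA. The mature miR-291a-3p, taken from RefSeq (GRCm38.p6, chr7:3218968-3218989, plus strand), is shown with its seed, bases 2 to 8, in capitals, since the matches below pair with it. The labels do not give the sequence of the transfected mimic itself.
miR-291a-3p: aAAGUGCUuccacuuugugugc
The shortest match counted was GCACTT (6mer); with A after it, GCACTTA, it is a 7mer-A1, with A before it, AGCACTT, a 7mer-m8, and with both, AGCACTTA, an 8mer. Each gene was given its longest class, on the transcript strand of its longest annotated 3' UTR in GENCODE M21 (GRCm38, which is not the GRCm39 build named for the deposited values). Of the 45 autophagy genes 13 held a 7-base or 8-base match (28.9%), against 20.9% of all 11580 tested genes with such a UTR. Of these 13, Gabarap and Atg16l2 fell, Atg4b rose and 10 did not pass: Wipi1, Atg4d, Atg7, Atg9a, Rb1cc1, Ulk1, Wdr45, Becn1, Atg12 and Epg5. Over all genes tested 38.7% of those with a 7-base or 8-base match fell and 18.1% rose. With total counts only 5 of the 13 fell (Gabarap, Atg16l2, Becn1, Rb1cc1 and Atg9a) and none rose. At that scaling 32.3% of all genes tested, with or without a match, fell and 17% rose. The shares among all matched genes were not computed there. Of the 32 members without such a match 8 fell and 6 rose. With TMM factors the median log2 change of the 13 was -0.04 and that of all genes with such a match -0.07. Among the 25 autophagy genes with no match 6 fell (24%) and 8 rose (32%), against 23.6% and 30.7% of all genes with none, and the medians were 0.06 and 0.02.

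A few of these matches are printed with the bases before them, the match in capitals. They show the matched members that passed (Gabarap and Atg16l2 lower, Atg4b higher), both 8mers, and matched members that did not pass. Whether the microRNA acts at any of them was not tested.
Gabarap 7mer-A1: accacctcctttcttcaggacctGCACTTA
Atg16l2 8mer: tgtatattatgcctggaatcccAGCACTTA
Wipi1 8mer: agccctagcttcggttcccagcAGCACTTA
Atg4b 7mer-m8: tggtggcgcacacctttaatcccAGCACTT
Rb1cc1 7mer-m8: ataaataatgagcagtcttcaaaAGCACTT
Becn1 7mer-A1: gattttatctctctcaacttcctGCACTTA
The Gabarap match lies at chr11:69994636-69994642 on the plus strand, starting at base 112 of the 427-base 3' UTR. That of Atg16l2 lies at chr7:101287476-101287483 on the minus strand, starting at base 2364 of the 4526-base 3' UTR, and that of Wipi1 at chr11:109576330-109576337 on the minus strand. Wipi1 held its 8mer only in the longest UTR and Ulk1 its 7mer only there; when the UTR was taken from the transcript whose coding sequence is longest, neither gene had a match, and 11 of the 45 genes kept one. Atg4b has its match at chr1:93789676-93789682 (plus strand), Rb1cc1, which also holds a 7mer-A1, at chr1:6274910-6274916 (plus strand), and Becn1 at chr11:101288488-101288494 (minus strand). All are exonic, inside the annotated 3' UTR.

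Of the 5 lowest log2 changes among the autophagy genes, 4 were in genes without a match. For comparison, 55.6% of the 45 genes and 66.6% of all 11580 tested genes with such a UTR held no match of any kind. Atg10, Ulk2, Atg9b and Gabarapl1 held none of the 4 kinds of match in a 3' UTR of 906, 2132, 906 and 1179 bases. None of these 4, nor Gabarap, held AGCACTT in the coding sequence, where 4 members did (Atg5, Nbr1, Rb1cc1 and Tax1bp1, 8.89%, against 12.8% of all genes). The absence of a match says only that these letters are not in the annotated sequence used.

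**Figure D4:**
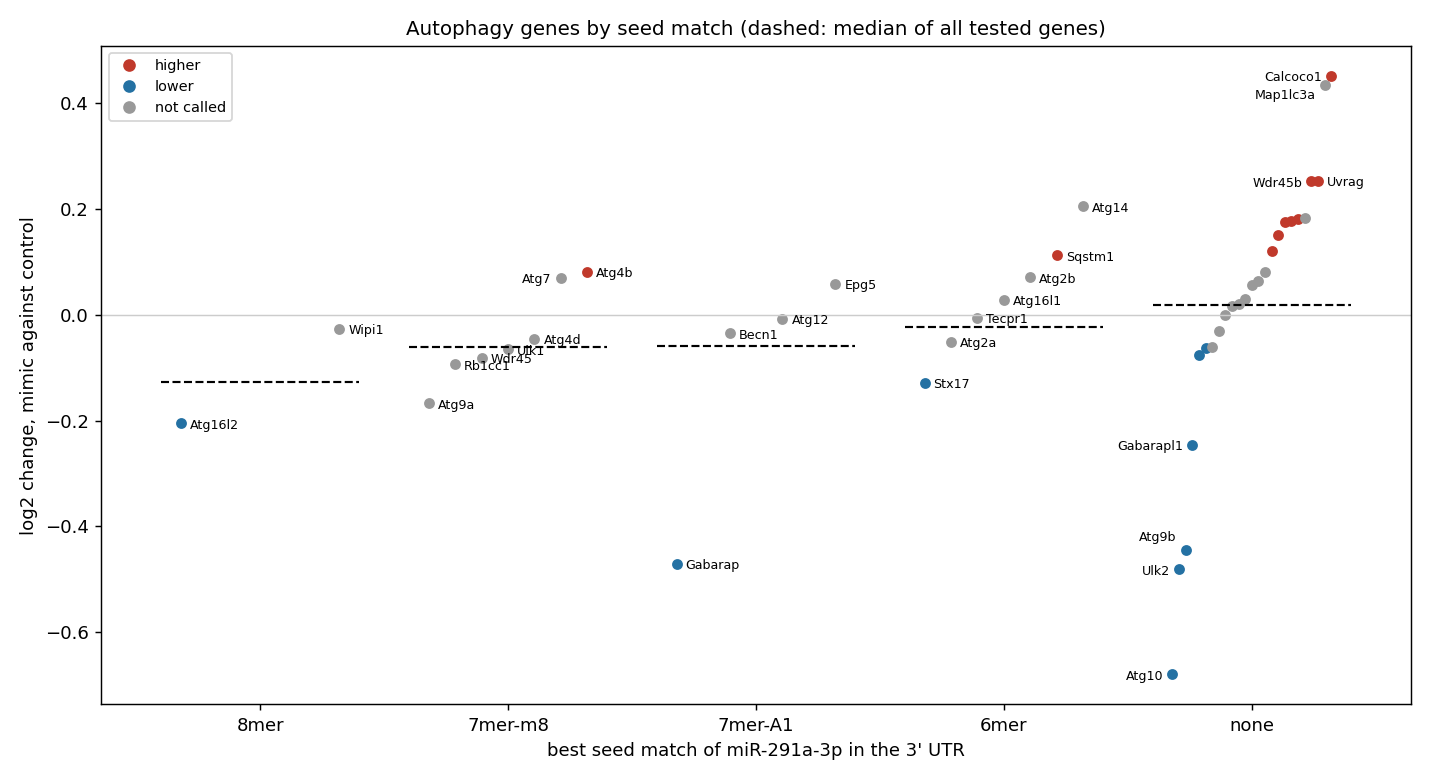
Log2 change of the 45 autophagy genes (vertical axis) by the best seed match in the longest annotated 3' UTR, spread horizontally by value and coloured by the call of the edgeR test, with dashed lines at the median of all tested genes of that class. Gabarap and Atg16l2 are the fallen members with a 7-base or 8-base match, and the falls of Atg10, Ulk2, Atg9b and Gabarapl1 stand in the column with none.

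Regulators and partners outside the core were taken from 8 lists with 103 entries, of which 95 were tested. Of these, 27 rose, 24 fell and 44 did not pass, with a median log2 change of 0.01. The share called, 53.7%, was near the 49.1% of all genes tested. Of the mTORC1 genes, whose kinase restrains ULK1 when nutrients are present, 10 of 23 rose and 5 fell. The mTOR inhibitor gene Deptor fell by 0.42 on the log2 scale, another inhibitory subunit gene, Akt1s1 (PRAS40), rose 1.27-fold and the lysosomal scaffold gene Lamtor5 rose 1.19-fold (adjusted p at most 1.58e-08 each, edgeR). With total counts only 7 mTORC1 genes rose and 7 fell, and the split of every other list also moved toward falls. Over all genes tested 17% rose and 32.3% fell at that scaling. Of the AMPK genes, whose kinase activates ULK1 when energy is low, 3 of 10 rose and 3 fell, among them Prkag1 (log2 change -0.21), Prkab1 (-0.14) and Prkab2 (0.21, adjusted p = 0.0238). The rise of Prkab2 was lost with total counts only (0.101), where none of the 10 rose and 4 fell.

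The transcription factors that act on autophagy genes moved in both directions, 2 of 7 up and 2 down. Tfeb, the best known of them, stood at 5.55, 5.13 and 4.64 CPM in control and 4.33, 4.8 and 5.09 CPM in mimic libraries and did not pass (log2 change -0.10 ± 0.11, adjusted p = 0.502, edgeR). Its relative Tfe3 rose 1.09-fold (adjusted p = 0.00317), which was lost with total counts only (0.09). Foxo4 rose 1.19-fold. The forkhead factor gene Foxo3 had a log2 change of -0.19 and the repressor gene Zkscan3 one of -0.20, and both passed. Among the cofactors of the PI 3-kinase, 2 of 9 rose and 3 fell. The 3 that fell were Bcl2, which holds Beclin 1 (log2 change -0.46), Rubcn, an inhibitor of the UVRAG complex (-0.39), and the PI3P phosphatase gene Mtmr3 (-0.32).

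Membrane traffic, selective receptors and fusion factors were also mixed. Of 8 genes of ATG9 traffic 1 rose (Arfip2, 1.06-fold, adjusted p = 0.0483, and 0.54 with total counts only) and 2 fell (Snx7, -0.21, and Pi4kb, -0.18). Of 9 mitophagy genes 4 rose, including Phb2 (1.13-fold) and Bnip3l (1.09-fold), and 2 fell, including Pink1 (-0.20). With total counts only Phb2 alone of these 9 rose and 4 fell. Of 14 other selective receptors 3 rose and 4 fell. The reticulophagy receptor gene Retreg2 fell from 104, 103.5 and 102 CPM to 72.7, 67.3 and 69.7 CPM (log2 change -0.56 ± 0.03, adjusted p = 1.28e-15, edgeR), Atl3 fell by 0.33 and Retreg3 by 0.16.

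Of 15 lysosome fusion genes 2 rose and 3 fell. Lamp2, whose product is a lysosomal membrane protein needed for fusion, fell from 206, 209 and 208 CPM to 148, 149 and 152 CPM, with the smallest adjusted p of the 8 lists (6.4e-17, edgeR, log2 change -0.48 ± 0.02). The adaptor gene Plekhm1 fell by 0.20. Lamp1 rose 1.06-fold, a call lost with total counts only (adjusted p = 0.163); there 7 of the 15 fusion genes fell and none rose, against 32.3% and 17% of all genes tested at that scaling. Over the 8 lists together 29 genes held a 7-base or 8-base match, of which 11 fell, 6 rose and 12 did not pass. Of the 66 without one 13 fell and 21 rose. Over all genes tested 38.7% of those with such a match fell and 18.1% rose. For genes with a 6mer these shares were 30% and 25.1%, and for genes with no match 23.6% and 30.7%.

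**Figure D5:**
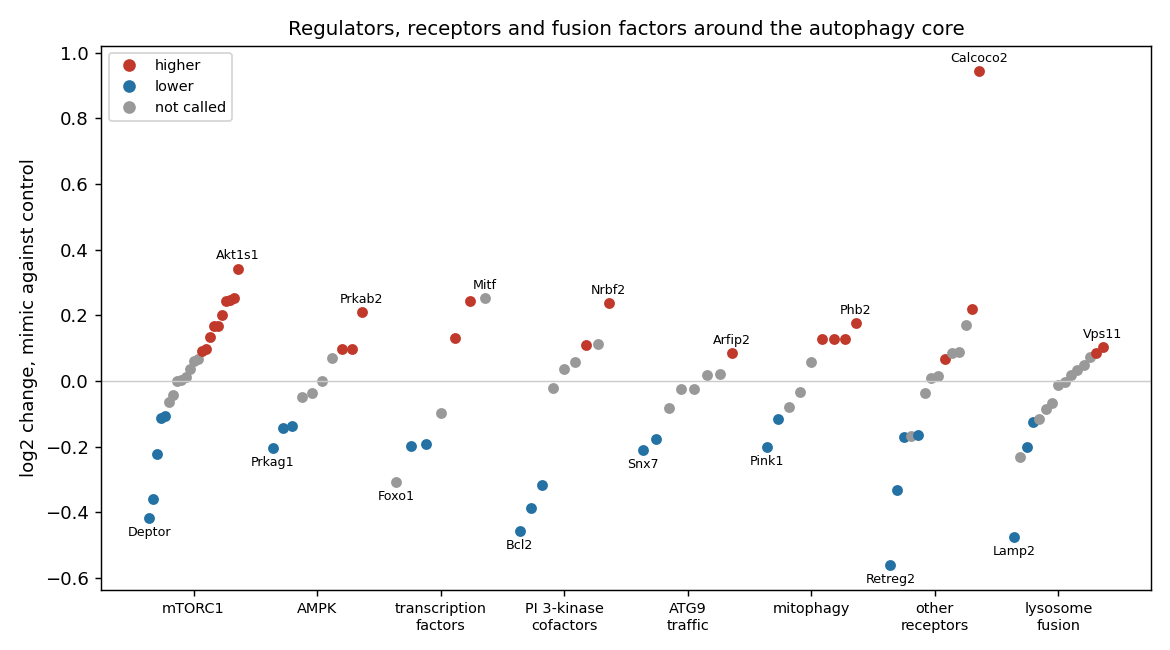
Log2 change (vertical axis) of the tested genes of 8 lists around the autophagy core, ordered by value within each list and coloured by the call of the edgeR test; the lowest and highest gene of each list is labelled. Lamp2 (-0.48), Bcl2 (-0.46), Deptor (-0.42) and Retreg2 (-0.56) are the lowest of their lists, and Calcoco2, the highest point, had under 1 CPM in every library.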

How the data were processed

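Titles assigned 3 libraries to mimic and 3 to control. Polyadenylated RNA was captured and made into strand-marking libraries, per the labels' protocols. HISAT2 and DESeq2 are named as tools and GRCm39 as the build, per the submitters' processing notes, while how reads were counted, with which strand setting and annotation, is not given in the sources used here. Whole-number read counts for 24794 genes were deposited by the authors, with FPKM values (per length and depth, as the authors deposited them) for 24494 genes.

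Counts were tested over the whole table with edgeR 4.0.16 (R 4.3.3), using filterByExpr, TMM factors, glmQLFit and glmQLFTest and a threshold of 0.05 on the adjusted p. SE is the size of the log2 change divided by the square root of F. In 575 symbols a low line was read as a hyphen. Libraries of 1 group differed by more than sampling noise (mean chi-square per gene 1.85 to 2.23), so none was treated as a repeat deposit of another, which does not show that they were separate cultures. The scripts were tested on simulated data, in which 13439 of 13634 genes tested were unchanged. Changes of 1.2-fold, 1.5-fold and 2-fold were called in 60%, 78.8% and 90.6% of the genes given them, and 0.0595% of unchanged genes were called. Far fewer genes changed there than were called in these data, so those shares need not hold here.

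The members and lists were chosen with earlier results of these data known. The named genes are the 8 risen and 8 fallen members with the largest changes, 9 fixed members, up to 3 called genes of each other list, and Tfeb and Tfe3. Other members are given by their log2 change. The CPM of Atg14, Atg4b, Map1lc3a, Tax1bp1, Optn and Atg4a-ps, Calcoco2 and the seed context below were added after their values were seen. Seed matches and exons came from GENCODE M21. By that annotation, exons of a gene on the opposite strand cover 43.9% of the exonic bases of Becn1, 28.3% of Gabarapl1, 19.3% of Atg4d, 17.6% of Uvrag and 17.3% of Sqstm1, and exons on the same strand 31.8% of Atg9a and 24.7% of Wdr45, so reads may be shared there.

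Alternatives for the 45 genes were scaling by DESeq2 size factors or by total counts only, the Wald test of DESeq2 1.42.0, 2 other filters (none, or 2 CPM in at least 3 libraries), limma 3.58.1 on FPKM with pseudocounts of 1 and 0.1, a block for the replicate number, leaving out each library in turn, an adjusted p under 0.01, and another 3' UTR for the matches. For the 8 other lists only the scaling was varied.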

Additional observations from a re-analysis of the deposited data

How the results depend on the processing

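No called autophagy gene changed direction. The count of members called higher was 10. It moved by over 1.5 times to 6 with total counts only and to 4 with limma on FPKM, at a pseudocount of 1 (4) and of 0.1 (4). Over all genes the count called higher also fell, from 3349 of 13779 to 2341 with total counts only. With limma it was 1948 and 1976 of 24494. The cause was not tested. With each library left out in turn, 8 to 10 members were higher, 5 to 8 lower, and 6006 to 6350 of all genes were called, against 6772 with all 6. Of all genes 3029 to 3249 were then higher and 2977 to 3142 lower. With the replicate number as a block 11 members were higher and 8 lower, against 3403 and 3484 of 13779 genes. Deviations of same-numbered libraries from their group means correlated at 0.03, 0.07 and 0.05, so the numbers were not taken to pair the libraries, although each library correlated best with its own number. Of the members that did not pass, 13 took the other sign in at least 1 alternative, at log2 changes between -0.05 and 0.11. Precision was lowest for weakly expressed members: the SE of the log2 change was 0.23 for Map1lc3a and 0.29 for Atg4a-ps, against 0.02 for Gabarap.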

Other observations

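Members with the same seed match differ in the letters before it. In Atg4b and Atg16l2 every AGCACTT match follows AATCCC, while in Atg4d, Atg7, Atg9a, Rb1cc1, Ulk1, Wdr45 and Wipi1 at least 1 match does not. The match of Atg4d follows AATCTA, and the letters just before that are the same as in Atg4b. The split therefore rests on the exact 6 letters. Among all genes tested, the 114 whose AGCACTT matches all follow AATCCC had a median log2 change of -0.03, with 29.8% fallen, and the 1936 with another match a median of -0.08, with 39.7% fallen. The 9530 with no AGCACTT match had 0.01, with 25% fallen. These are descriptions over genes, which are not independent replicates, and the difference was not tested. Of the 7 members with a match outside this context none passed in either direction, against 39.7% fallen and 17.9% risen over all such genes. With total counts only Atg9a and Rb1cc1 of these 7 were lower (log2 changes -0.22 and -0.15, adjusted p = 0.0319 and 0.0102, edgeR). At that scaling 32.3% of all genes tested, whatever their match, were lower and 17% higher. The shares among genes with such a match were not computed there.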
